A study of Caenorhabditis elegans with 2 samples.

Results

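The translation factor genes of Caenorhabditis elegans were taken as every protein-coding gene whose symbol begins eif-, iff-, ife-, ifg-, eef-, eft- or erfa- in the Ensembl annotation of assembly WBcel235. This rule found 41 of the 19985 protein-coding genes, 33 initiation, 6 elongation and 2 release factor genes, and no symbol beginning eft-. The rule reads symbols and no measured value, and it leaves out factors with other names, such as the eIF4A helicase gene inf-1. The values come from chromatin immunoprecipitation followed by sequencing on whole worms, in which DNA bound by a tagged protein is pulled down and candidate regions are listed. The worms were strain OP208, which carries the mutation unc-119(ed3) and the integrated transgene wgIs208, in which the nuclear hormone receptor NHR-27 is fused to green fluorescent protein (GFP). Antibody to GFP was used on young adults of mixed sex at 78 h, synchronized as starved first-stage larvae. Both libraries, biological replicates 1 and 2, belong to this 1 group, so conditions could not be compared, and the control library was not analysed here beyond its use in the deposited region lists. A free-text label names the tagged protein as NHR-270, in conflict with the other labels, and the promoter that drives the fusion is not given in the sources used here. Cell types cannot be checked, since the lists hold positions on DNA and no expression values.

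Translation factors are the proteins that help the ribosome start, extend and finish a protein chain. Initiation factors bring the first tRNA, the messenger RNA cap and the small ribosomal subunit together, with eIF2 carrying the tRNA, eIF2B recharging eIF2 with GTP, eIF3 acting as a scaffold and eIF4E binding the cap. Elongation factors deliver each further aminoacyl-tRNA (eEF1A, recharged by the other eEF1 subunits) and move the ribosome along (eEF2), and release factors end the chain at a stop codon. Protein synthesis is needed in every cell, and many of these genes are strongly expressed, as ribosomal protein genes are.

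A region was assigned to a gene when its summit, the position of highest signal, lay no more than 1000 bp before or 200 bp past any 5′ end annotated for it, and the strongest such region stood for the gene. The sequences at 5 of these genes are shown first, because the results below refer to them. All are given 5′ to 3′ on the strand of the translation factor gene, from the RefSeq genome of WBcel235. The first is 201 bp around the summit of the strongest region of all 41 genes, upstream of eif-2Bgamma (chrII:6968262-6968462, minus strand), with the part inside the small RNA gene sup-39 in capitals.
eif-2Bgamma: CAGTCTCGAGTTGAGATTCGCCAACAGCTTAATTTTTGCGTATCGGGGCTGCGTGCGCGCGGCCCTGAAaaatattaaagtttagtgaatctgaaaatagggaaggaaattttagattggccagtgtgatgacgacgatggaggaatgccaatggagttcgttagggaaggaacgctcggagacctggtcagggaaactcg
For iff-2 (chrII:8561368-8561567, minus strand) and eef-1G (chrV:10965540-10965718, plus strand), whose regions sit at their own 5′ ends, the flank directly upstream is shown with the bases within 20 bp of the summit in capitals.
iff-2: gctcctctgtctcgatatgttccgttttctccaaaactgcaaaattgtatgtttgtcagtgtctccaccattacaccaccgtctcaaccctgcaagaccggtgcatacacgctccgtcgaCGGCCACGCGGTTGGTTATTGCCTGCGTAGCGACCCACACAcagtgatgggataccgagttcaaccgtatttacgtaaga
eef-1G: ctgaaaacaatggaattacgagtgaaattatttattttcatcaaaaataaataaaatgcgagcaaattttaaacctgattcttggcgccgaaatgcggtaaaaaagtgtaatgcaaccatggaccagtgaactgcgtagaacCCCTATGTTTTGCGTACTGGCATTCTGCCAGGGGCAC
For eef-1A.1 (chrIII:6972055-6972252, minus strand) and eef-1A.2 (chrX:7823119-7823319, plus strand), the paralogues that encode eEF1A, the bases within 100 bp of the summit are shown without exons of protein-coding genes, and capitals mark GAGAGA and CGAGAG on either strand. The last 31 bases of the eef-1A.1 stretch belong to the microRNA gene cel-mir-5549.
eef-1A.1: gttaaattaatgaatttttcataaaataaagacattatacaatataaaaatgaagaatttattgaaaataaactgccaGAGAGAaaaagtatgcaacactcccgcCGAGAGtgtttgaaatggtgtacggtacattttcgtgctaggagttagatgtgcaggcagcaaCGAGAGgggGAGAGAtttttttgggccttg
eef-1A.2: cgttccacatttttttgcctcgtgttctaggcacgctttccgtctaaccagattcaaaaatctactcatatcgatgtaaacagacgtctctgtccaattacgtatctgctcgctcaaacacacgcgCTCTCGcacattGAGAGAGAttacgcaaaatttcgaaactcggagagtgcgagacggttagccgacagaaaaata

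In all, 3 lists served for all genes, 1 for each replicate and 1 from the pooled reads, each of 30000 regions, together with the pooled regions that passed an irreproducible discovery rate threshold. A signal value has no stated unit, and the pooled list is on a higher scale (median 38.1) than replicate 1 (22.5) or replicate 2 (21.2), so levels are also given as percentiles within a list, with 100 the highest. The lists do not give the number of reads behind a region, so counting error is unknown. Each list also holds background, by its description in the deposited notes, and most regions described below were not separated from it. The deposited q value of the strongest region was under 0.05 for 3 of the 23 translation factor genes with a pooled region, against 4.74% of all genes with one. It was so for 3 of 19 in replicate 1 (against 4.29%) and for 4 of 24 in replicate 2 (against 5.82%). The pooled q was 0.00257 for eif-2Bgamma and iff-2 and 0.00629 for eif-3.C, then 0.0691 for eef-1G and 0.0916 for ife-1, and it ran from 0.442 (eef-2) to 0.936 (eif-3.F) for the other 18 genes. In the pooled list 23 of the 41 genes had a region in the window (56.1%), against 36.4% of all protein-coding genes. In the list of replicate 1 there were 19 (46.3%, against 35.8% of all genes) and in that of replicate 2 there were 24 (58.5%, against 37%). The share of translation factor genes was thus above that of all genes in each list, a difference for which no test was run. Of the 41 genes, 14 had a region in all 3 lists, 10 in 2 of them, 4 in only 1, and 13 in none. The 13 were eef-1B.2, eif-1, eif-1.A, eif-2Balpha, eif-2Bbeta, eif-2Bdelta, eif-2D, eif-3.D, eif-3.G, eif-3.H, eif-3.K, eif-3.L and erfa-3. The signal of those genes is unknown, since each list stops at its lowest entry (28.5 in the pooled list). By chromosome, 9 of 12 members on I had a region in the pooled list, 6 of 12 on II, 4 of 6 on III, 3 of 6 on V, 1 of 3 on X and 0 of 2 on IV. Shares of all protein-coding genes were not computed by chromosome, so these counts do not set the members apart from other genes there.

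**Figure D1:**
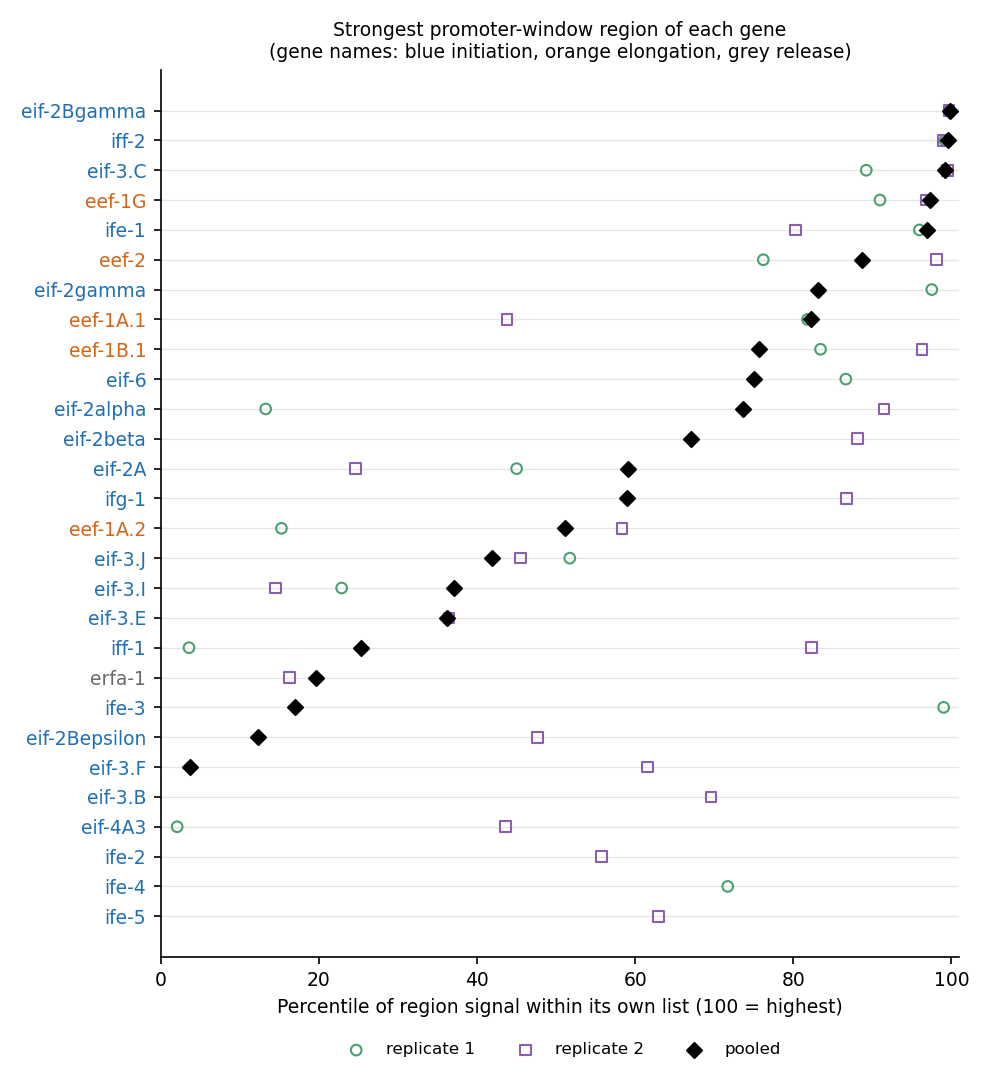
Percentile of the strongest promoter-window region of the 28 genes with a region in any list (100 is the highest signal of a list). Diamonds are the pooled list, circles replicate 1 and squares replicate 2. eif-2Bgamma and iff-2 are near 100 in all 3, while eif-2alpha, iff-1, eef-1A.1 and eef-1A.2, among others, lie far apart between the replicates.

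A thresholded summit lay in the window of 3 genes, all of them initiation factor genes by symbol: eif-3.C, eif-2Bgamma and iff-2. With the iff genes, which encode eIF5A, counted as elongation factor genes, 2 of 31 initiation and 1 of 8 elongation factor genes had one. The 3 genes are 13.0% of the 23 translation factor genes with a pooled region. Over all 7284 protein-coding genes with a pooled region, 2.76% had a thresholded summit. No test of this difference was run, and it rests on 3 genes. The lowest thresholded region had a pooled signal of 92.12 and the highest region left out had 92.05.

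The strongest region was upstream of eif-2Bgamma (gamma subunit of eIF2B, the exchange factor of eIF2; II from 6965800 to 6967648, minus strand). Its signal was 74.2 in replicate 1 and 71.8 in replicate 2, a mean of 73.0 ± 1.70 (SD, n = 2), and 148.6 in the pooled list. The replicates thus differed little, and the region ranked 75, 88 and 55 of 30000 in those lists. Its summit lay 714 bp upstream of the annotated 5′ end, in an intron of C15F1.5, the neighbouring gene on the same strand, whose end is 252 bp before eif-2Bgamma. The same stretch holds several RNA genes. The summit was 24 bp from the piRNA gene 21ur-14704, 30 bp from the noncoding RNA gene C15F1.14 and 32 bp from sup-39, which the annotation calls a small nuclear RNA gene. Also annotated as small nuclear RNA, mir-1831 lay inside sup-39, 168 bp from the summit. A second region (pooled signal 80.3) overlapped the first and had its summit at -916 bp, beyond the far end of sup-39. In the printed sequence the summit is thus just outside the capitals. Which of these genes the signal belongs to was not tested.

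**Figure D2:**
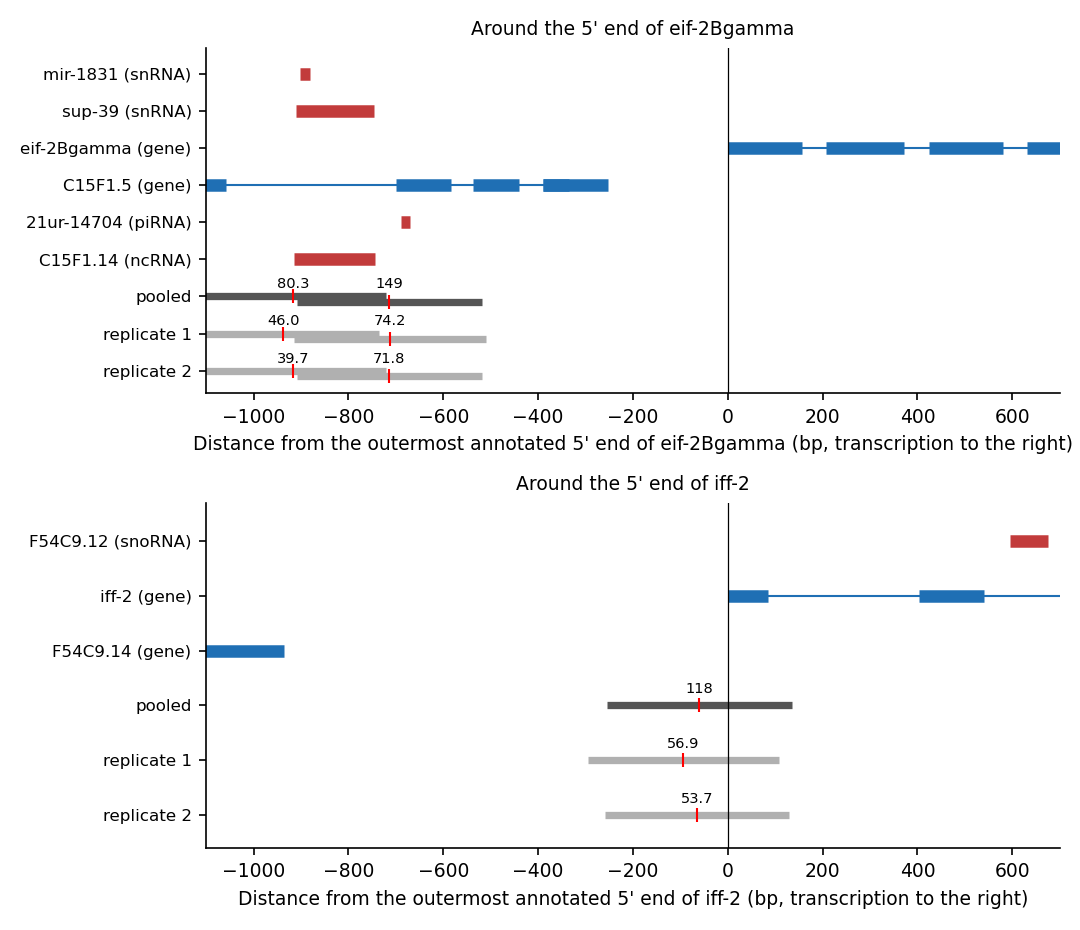
Regions (grey bars, red ticks at summits, signal above) and annotated genes around the 5′ ends of eif-2Bgamma and iff-2, by distance in bp with transcription to the right. Blue boxes are exons and red bars RNA genes; the summits of eif-2Bgamma lie at -714 and -916 bp, on either side of sup-39, while that of iff-2 lies 60 bp upstream of its own 5′ end.

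iff-2 encodes eIF5A, a factor first described in initiation and now known to help the ribosome through difficult stretches during elongation. The gene lies at II from 8559375 to 8561367 on the minus strand. Its region had a signal of 56.9 in replicate 1 and 53.7 in replicate 2 (55.3 ± 2.22, SD, n = 2), and 117.7 in the pooled list, where it ranked 148. The replicates were close here too, with ranks of 247 and 301 and summits 29 bp apart. The pooled summit was intergenic, 60 bp upstream of the outermost 5′ end, and the nearest small RNA gene, the snoRNA gene F54C9.12, was 655 bp away, inside iff-2. The window of the divergent gene F54C9.14 holds the same summit. The paralogue iff-1, known for its role in the germ line, was far lower: 17.1 in replicate 1, 28.5 in replicate 2 and 32.7 in the pooled list (rank 22387). In each list iff-2 was above iff-1, but the replicates of iff-1 lay 1.67-fold apart, and its summits there were 281 bp from each other.

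eif-3.C, at I from 9976426 to 9979662 on the minus strand, encodes a core subunit of the eIF3 scaffold. Its region, with the summit 242 bp upstream between eif-3.C and sys-1, had a signal of 33.9 in replicate 1 and 62.9 in replicate 2, a mean of 48.4 ± 20.5 (SD, n = 2), and 103.6 in the pooled list (rank 239). The place was the same in both, with summits 40 bp apart, but the height was not: the region ranked 3233 in replicate 1 and 154 in replicate 2. The nearest small RNA gene was 13653 bp away. The other eIF3 genes were lower or unlisted in the pooled list. Of 11 eIF3 genes, 5 had a pooled region, and eif-3.J (36.1), eif-3.I (35.0), eif-3.E (34.9) and eif-3.F (29.1) were all below the pooled median of 40.2 for the strongest regions of all genes. In replicate 2, on its own scale, eif-3.B (24.7, with no region in the other lists) and eif-3.F (23.1) were above that list's median of 22.4 for all genes. eif-3.G, a subunit with an RNA-binding domain, had no region in the window, but a thresholded region with a pooled signal of 181.6, rank 21, had its summit 1065 bp upstream of eif-3.G, in an intron of lips-10. That summit was just outside the window, so the count of 3 depends on where the window ends.

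The next highest pooled signals were those of eef-1G and ife-1. eef-1G, the gamma subunit of the eEF1 exchange complex, had the highest pooled signal of the elongation factor genes: 35.2 in replicate 1 and 41.6 in replicate 2 (38.4 ± 4.56, SD, n = 2), and 77.1 in the pooled list (rank 818). Its summits lay 14 to 39 bp upstream of the nearest annotated 5′ end in the 3 lists, and that of the pooled list is in the window of the divergent gene ctf-4 too. ife-1, an eIF4E gene at III from 13343417 to 13344618, had 41.2 in replicate 1, 27.8 in replicate 2 (34.5 ± 9.50, SD, n = 2) and 75.3 in the pooled list (rank 912). Its summit, within 1 bp in all lists, was 100 bp downstream of an annotated 5′ end, in a coding exon. With the 5′ end of the gene record alone, that region is outside the window, and the pooled percentile of ife-1 was 38.4 in place of 97.0. The other eIF4E genes did not share it. ife-2 had 22.1 in replicate 2 only, ife-4 had 26.9 in replicate 1 only, and ife-5 had 23.3 in replicate 2 only. ife-3 had 31.2 in the pooled list, 147 bp upstream, whereas its strongest region in replicate 1 was another one, 937 bp upstream with a signal of 54.6 and rank 296. A thresholded region (pooled signal 93.7, rank 369) overlapped that replicate 1 region, but its summit lay 1152 bp upstream of ife-3, outside the window. Whether ife-3 counts thus depends on where the window ends.

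**Figure D3:**
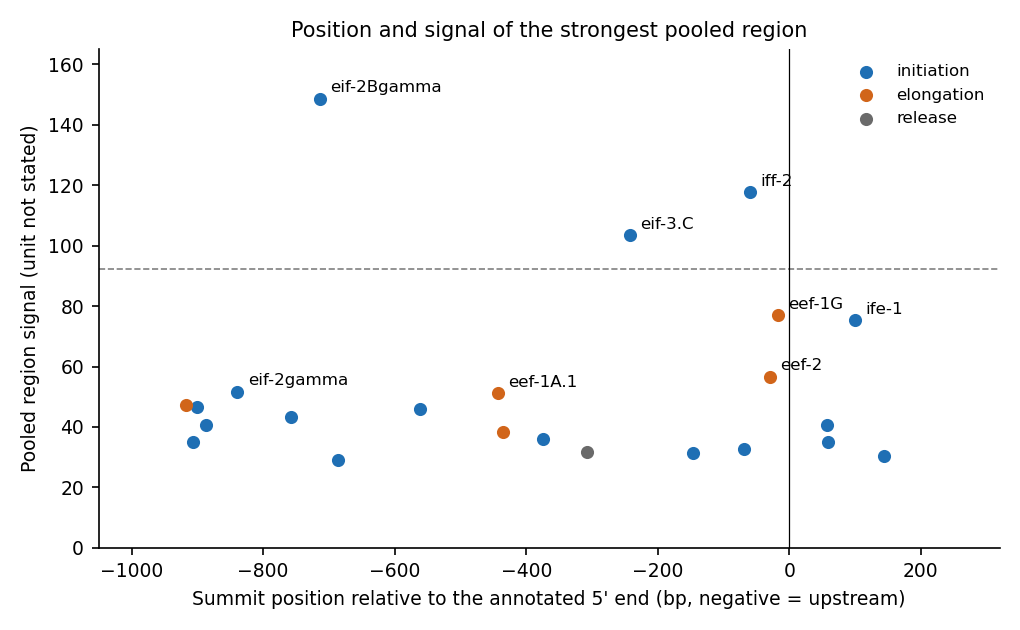
Position of the summit (bp) and pooled signal of the strongest region for the 23 genes with one. Positions are relative to the nearest annotated 5′ end whose window holds the summit. The dashed line is the lowest signal of a thresholded region; of the 3 genes above it, iff-2 and eif-3.C lie within 300 bp of the 5′ end and eif-2Bgamma does not.

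The genes of eIF2 itself all had a pooled region, at a moderate level. eif-2gamma, the subunit that binds GTP and the first tRNA, had 51.7 in the pooled list, 839 bp upstream, in the window of its neighbour tbca-1 too. The overlapping regions were 45.3 in replicate 1 and 22.3 in replicate 2, and this was the only one of the 13 genes with overlapping regions in both replicates whose signals were over 2-fold apart (2.03). eif-2alpha, whose product is phosphorylated under stress, had 18.0 in replicate 1 and 33.7 in replicate 2 (46.1 pooled), in a coding exon of its upstream neighbour phb-1. eif-2beta had 43.3 in the pooled list and 31.3 in replicate 2, with no region in replicate 1. Of the 5 eIF2B genes, eif-2Bepsilon had 30.4 in the pooled list and 20.8 in replicate 2, and eif-2Balpha, eif-2Bbeta and eif-2Bdelta had no region, so eif-2Bgamma had the only high signal among the genes of its complex. Single-gene factors varied as well: eif-6, which keeps ribosomal subunits apart, had 46.8 in a coding exon of pbs-2, eif-2A had 40.6, and ifg-1, the eIF4G scaffold, had 40.6 in a coding exon of M110.3. eif-4A3, a helicase known from the exon junction complex, had no pooled region. It had 17.0 in replicate 1 and 20.3 in replicate 2, but in different regions, with summits 946 bp apart.

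Elongation factor genes had a higher median percentile than initiation factor genes in each list. None of the 5 with a pooled region had a thresholded summit while iff-2 was counted with initiation. That share was 2.76% over all protein-coding genes with a pooled region. In each list 5 of 6 elongation factor genes had a region (83.3%). Of the 33 initiation factor genes, 17 had one in the pooled list (51.5%), 14 in replicate 1 (42.4%) and 18 in replicate 2 (54.5%). The shares over all protein-coding genes were 36.4%, 35.8% and 37%. The median percentile of the strongest region in the pooled list was 82.3 for elongation and 59.1 for initiation, beside 57.7 for all 7284 protein-coding genes. The gap between the classes depended on the replicate. In replicate 1 the medians were 81.8 for elongation and 79.2 for initiation, and initiation minus elongation was -2.62 points. In replicate 2 they were 96.3 and 66.3, and that difference was -30.0 points. With 5 genes the elongation median is the value of 1 of them, eef-1A.1 in the pooled list and in replicate 1. In replicate 2 eef-1A.1 was at percentile 43.8. The initiation genes spanned nearly the whole scale (3.74 to 99.8 in the pooled list), which takes in all 5 elongation genes (51.1 to 97.3). Genes are not replicates and the classes hold few of them, so no test was run.

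**Figure D4:**
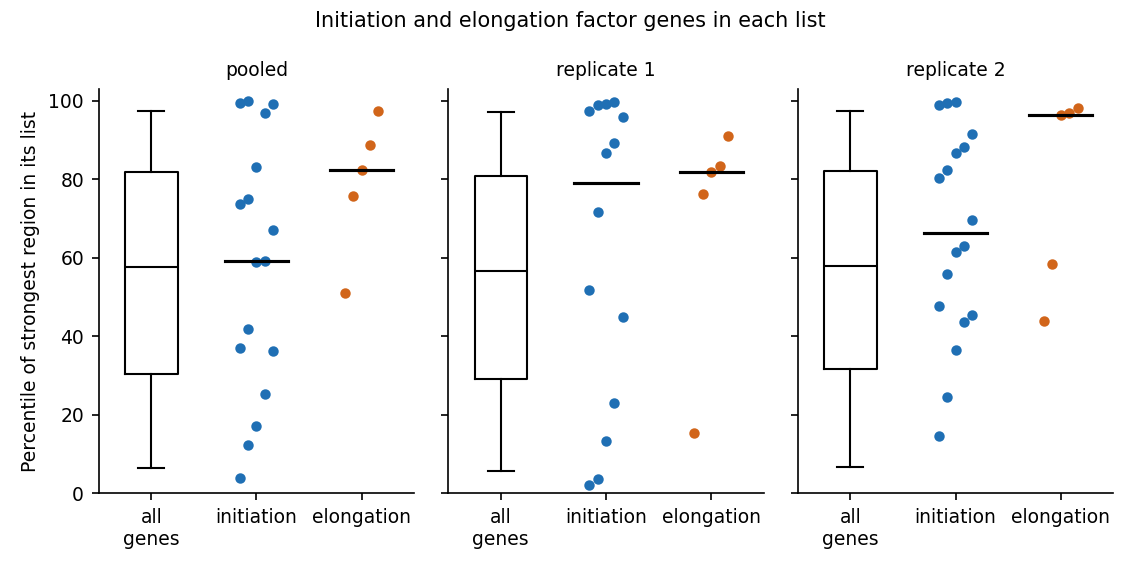
Percentile of the strongest promoter-window region within each list for initiation (blue) and elongation (orange) factor genes, with black bars at the medians. The box runs from percentile 25 to 75 of all protein-coding genes with a region and its whiskers run from percentile 5 to 95; elongation medians are above initiation medians in all 3 lists, with initiation minus elongation at -2.62 points in replicate 1 and -30.0 in replicate 2.

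eef-2, the factor that moves the ribosome along, had 56.6 in the pooled list with the summit 30 bp upstream, in the window of clsp-1 too. That region had 46.7 in replicate 2 (rank 565) and no counterpart in replicate 1, where the strongest region in the window was 748 bp upstream with 28.1. For eef-1A.1 the signal was 30.1 in replicate 1, 20.3 in replicate 2 (25.2 ± 6.90, SD, n = 2) and 51.1 in the pooled list, 443 bp upstream. The region is shared with the divergent gene rfc-4, and the summit was 70 bp from a microRNA gene, cel-mir-5549, on the strand of eef-1A.1. For eef-1A.2 it was 18.2 in replicate 1, 22.5 in replicate 2 (20.4 ± 3.01, SD, n = 2) and 38.4 in the pooled list, 435 bp upstream, where the nearest RNA gene was the noncoding R03G5.8, 166 bp away. The order of this pair differed between the replicates. eef-1A.1 was the higher in replicate 1 (30.1 against 18.2) and eef-1A.2 in replicate 2 (22.5 against 20.3). No difference between the paralogues thus held in both replicates. eef-1B.1, an exchange subunit, had 47.2 in the pooled list, in an intron of the divergent gene aco-2, where the replicates had 30.8 and 19.3. Its strongest region in replicate 2 was another one, 25 bp from its own 5′ end, with a signal of 40.4 (rank 1120). That region, at percentile 96.3, is the elongation median in replicate 2. Its companion eef-1B.2 had no region. Of the release factor genes, erfa-1, which reads the stop codon, had 31.7 in the pooled list and 17.2 in replicate 2, and erfa-3, its partner GTPase, had none in the window.

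Between replicates the 13 genes with overlapping regions in both were within 1.5-fold of each other in 8 cases, and 8 were higher in replicate 1 and 5 in replicate 2. The other 10 pooled regions were overlapped in 1 replicate only, 3 in replicate 1 and 7 in replicate 2. With as many of each replicate's own highest regions in place of the thresholded set, 3 genes again had a summit among them in each replicate. In replicate 2 they were iff-2, eif-3.C and eif-2Bgamma, 3 of 24 members with a region there, against 2.79% of all protein-coding genes with one. In replicate 1 they were eif-2Bgamma, iff-2 and ife-3, 3 of 19, against 2.49% of all protein-coding genes with a region there. eif-2Bgamma and iff-2 were thus among the highest regions of both libraries, and eif-3.C of replicate 2 alone.

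Small RNA genes (tRNA, snoRNA, snRNA, microRNA, rRNA and piRNA) were within 200 bp of the strongest pooled summit for 2 of the 23 genes (8.70%), eif-2Bgamma and eef-1A.1, against 3.4% of all genes with a region. With the annotation's general noncoding RNA class included the count was 5, adding eef-1A.2 (R03G5.8), eif-3.F (D2013.13, 125 bp) and iff-1 (T05G5.17, which covers the summit). The share of all genes with that class included was not computed, and the 3.4% cannot be set against the 5. iff-2, eif-3.C, eef-1G and eef-2 had no small RNA gene of these kinds within 500 bp.

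Of the 23 pooled summits, 10 were intergenic (43.5%, against 45.6% of all genes with a pooled region), 6 inside the gene (26.1%, against 32.7%) and 7 inside another protein-coding gene only (30.4%, against 21.7%). Within a neighbouring gene's window were 9 (39.1%, against 21.3%). Within 300 bp of the 5′ end were 10 (43.5%, against 50.6%). A protein-coding gene on the same strand ended within 500 bp upstream for 5 of the 23 genes with a pooled region and for 2 of the 18 without. That share was not computed over all protein-coding genes, and whether the 2 groups differ was not tested. Around the summit (201 bp), GC content had a median of 40.8% over the 23 genes, beside 40.3% over all 8583 pooled regions in promoter windows. On either strand GAGAGA was in 2 of the 23 windows (8.70%, against 17.7% of the 8583), and CGAGAG in 2 (8.70%, against 10.3%). Both times they were the windows of eef-1A.1 and eef-1A.2 printed above. The former holds 2 copies of each word. The latter holds 1 copy of CGAGAG, and its 2 copies of the other word overlap. The core of many nuclear receptor sites, AGGTCA, was in 1 window, that of eif-3.I (4.35%, against 5.52%). TTTCAG was in 11 (47.8%, against 30.8%), TGATAA in 2 (8.70%, against 14.9%) and TATAAA in 3 (13.0%, against 16.2%). A word in the sequence is a description and no sign of binding.

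Several translation factor genes carried more signal at their ends than at their starts. In a window that mirrors the promoter window, from 200 bp upstream to 1000 bp downstream of the annotated gene end, 27 of the 41 genes had a pooled region (65.9%), against 37.8% of all protein-coding genes. All 6 elongation factor genes had one, with summits 29 to 349 bp past the gene end and a median percentile of 94.9, beside 60.6 over all genes with such a region. In replicate 1 only 4 of the 6 had one, without eef-1G and eef-1B.1, and in replicate 2 all 6 did. Cytosolic ribosomal protein genes also had one often, 75 of 81, with a median percentile of 90.8. The gene-end region was the stronger for 13 of the 17 translation factor genes with a pooled region in both windows (76.5%, against 50.3% of such genes overall). That majority held in replicate 1 (8 of 11) and not in replicate 2 (8 of 18). This window was chosen after the values had been seen, and no test was run.

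**Figure D5:**
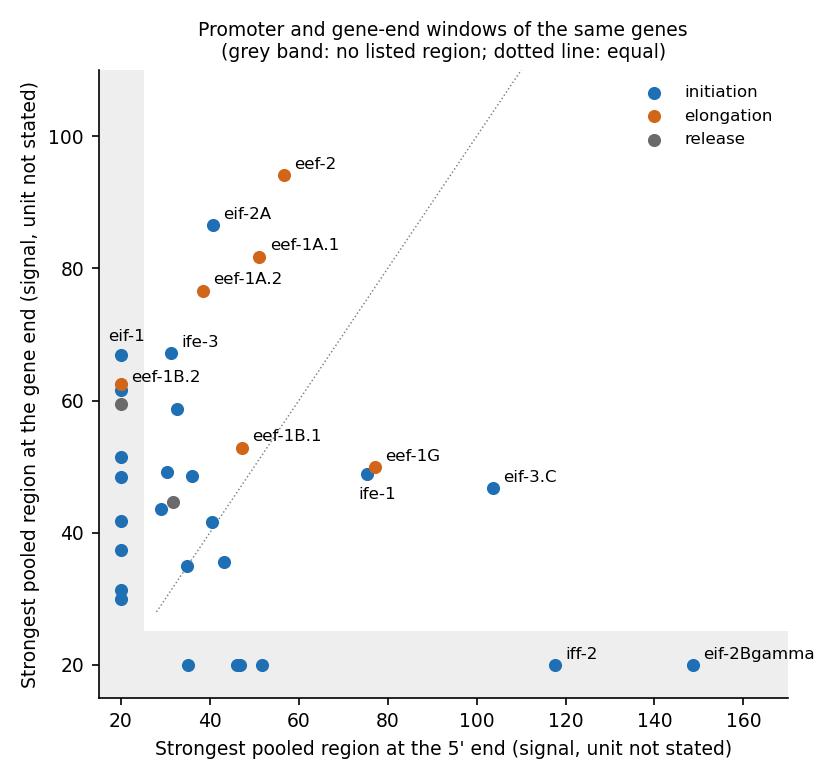
Pooled signal of the strongest region at the 5′ end (horizontal) and at the gene end (vertical) for the genes with a region in either window. Points in the grey bands have no listed region in that window and are drawn at a fixed position; eef-2, eef-1A.1 and eef-1A.2 lie above the dotted line of equal signal and eif-3.C, iff-2 and eif-2Bgamma below it.

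eef-2 had a thresholded region at its end, the only 1 of the 27, against 3.16% of all genes with a pooled gene-end region. It lay at I from 9166786 to 9167175 with the summit 29 bp past the gene end, and had 78.1 in replicate 1 (rank 58) and 42.8 in replicate 2 (rank 856), a mean of 60.4 ± 24.9 (SD, n = 2), and 94.2 in the pooled list (rank 360). Both replicates list it, far higher in replicate 1. At the end of eef-1A.1 the pooled summit was again 29 bp past the gene end, here in a coding exon of F31E3.12. The signal there was 58.6 in replicate 1, 25.1 in replicate 2 (41.9 ± 23.7, SD, n = 2) and 81.8 in the pooled list. At eef-1A.2 it was 76.6 in the pooled list, 254 bp past the end, with 23.2 in replicate 1 and 30.5 in replicate 2. In replicate 2 the strongest region at that end was another one, 102 bp past it with a signal of 42.0. eef-1B.2, which had no region at its 5′ end, had 62.5 at its end (46.3 in replicate 1, 29.1 in replicate 2), in an intron of hrpu-1 and within that gene's promoter window. Among initiation factor genes, eif-2A had 86.5, 260 bp past its end in a coding exon of frpr-21 (47.4 in replicate 1, 41.7 in replicate 2). eif-1, without a region at its 5′ end, had 66.8 in the window of T27F7.12. Neighbouring genes thus share several of these regions, and how far the signal belongs to each was not tested. Of the 13 genes with no 5′ region in any list, 9 had a pooled region at their end (69.2%, against 31.4% of all 9351 such genes).

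The other genes of translation were set beside these by a list of symbols. None of the 31 aminoacyl-tRNA synthetase genes, which charge tRNAs with amino acids, had a thresholded summit, and 16 had a pooled region (51.6%), with a median percentile of 61.6. In the replicates that median was far apart, 41.0 in replicate 1 and 84.4 in replicate 2. The highest was ears-2, a glutamyl-tRNA synthetase gene, with 22.3 in replicate 1, 54.3 in replicate 2 and 83.1 in the pooled list, 14 bp from its 5′ end. Its replicates lay far apart, at ranks 15389 and 286. Of the poly(A) binding protein genes, pab-2 had 62.9 and pab-1 had 36.2 in the pooled list. Among 3 factor kinase genes, 4 ATP binding factor genes, 4 mitochondrial factor genes and 7 further genes, 0 had a thresholded summit and 1, 1, 1 and 6 had a pooled region. Of the cytosolic ribosomal protein genes, 7 of the 54 with a pooled region had a thresholded summit, a share that rounds to 13.0% as that of the translation factor genes does. Their median percentile was 82.0 in the pooled list, 80.5 in replicate 1 and 79.1 in replicate 2, beside 82.3, 81.8 and 96.3 for the elongation factor genes.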

How the data were processed

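The 2 libraries are biological replicates of 1 group. Per the deposited text notes, regions with background were listed from each replicate's alignment and from both pooled, each with a control alignment, on assembly ce11 (WBcel235), and the thresholded set was derived from these lists. Which caller, aligner and thresholds were used is not given in the sources used here. Per the deposited files, signal per region is a score whose scale is not stated. The deposited −log10 q value of a region was turned into q and set against 0.05. Both are the authors' values.

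Gene models were those of Ensembl release 115, and bases were read from RefSeq's WBcel235 genome. A gene took the strongest region with its summit in the window of any of its 5′ ends. Replicate regions overlapping a pooled region by 1 bp or more gave means and SDs. Percentiles are ranks within a list. Words were sought within 100 bp of summits. No test was run, since there is 1 group and genes are not replicates. Values were computed with Python 3.11.15, numpy 2.4.6 and pandas 2.3.3, and gene assignment was tested on simulated data.

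The genes described in full were those with a thresholded summit, the next 6 by pooled signal, the highest of each class, those near small RNA genes, and the iff, eEF1A and ife paralogues; no gene's strongest replicate regions were over 2-fold apart, which was a further criterion. Genes without a region are named, and other genes named were chosen after their values were seen. Alternatives were other windows, 5′ ends, small RNA distances and classes, a stricter thresholded set and each replicate alone. Members and lists were chosen with earlier results of these data known.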

Additional observations from a re-analysis of the deposited data

How the results depend on the processing

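The count of 3 genes with a thresholded summit was 3 in both single-replicate lists (with ife-3 in place of eif-3.C in replicate 1), with the nearest 5′ end only and with the 5′ end of the gene record only. It was 2 with a window from 500 bp upstream to 100 bp downstream, where 14 members had a region. It was also 2 with regions near small RNA genes left out, where 21 members had one (both without eif-2Bgamma). Among the upper 196 thresholded regions it was 2 (without eif-3.C). Shares over all protein-coding genes are not given here for these settings, so these counts do not set the members apart from other genes. With the iff genes counted with elongation, iff-2 moves class and the total is 3. At the gene end, a window chosen after seeing the data, it was 1. The median percentile over translation factor genes with a pooled region was 67.0, beside 57.7 over all protein-coding genes with one. It was 81.8 in replicate 1 and 66.3 in replicate 2, beside 56.7 and 57.8 over all genes. With other windows, assignments or small RNA regions left out it ran from 59.1 to 62.4. The all-gene medians for those settings are not given here. Initiation minus elongation, -23.1 points, ran from -30.0 to -2.62 when a replicate was left out and from -31.8 to -18.1 otherwise, so its sign held and its size did not. The count of 2 genes near small RNA genes was 1 with the shorter window, 1 with the nearest 5′ end only, 2 at 100 or 500 bp, and 5 with the noncoding RNA class added after seeing the data. The cause of these shifts was not tested. No paired analysis was possible because there is 1 group. Depth is unknown, which limits every value.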
